A study of Mus musculus with 6 samples.

Results

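The chaperone and unfolded protein response genes of the mouse cone transcriptome were examined after deletion of the clock gene Bmal1 in cones. The 93 members were taken from a table of 9720 genes by their symbols: heat shock proteins of the HSP90, HSP70, HSP110 and chaperonin classes, the J-domain proteins (Dnaja, Dnajb and Dnajc), the CCT chaperonin subunits, the Bag and prefoldin genes, protein disulfide isomerases, Canx, Calr, the stress sensors and factors Ern1, Eif2ak3, Atf6, Atf6b, Xbp1, Atf4 and Ddit3, and the Herpud, Edem, Sel1l and Syvn1 genes of protein degradation. The rule uses no measured value, but it was chosen with earlier results of these data known. Tcp1, which the symbol rule also covers, was not analysed here. RNA came from cones sorted by their enhanced green fluorescent protein from dissociated neural retina of mice on a mixed C57BL/6 background, kept in 12 h of light and 12 h of dark. Libraries were made from 100 ng of RNA by strand-directional poly(A) sequencing. The 3 control libraries were from HRGPcre;Bmal1f/+;Z/EG mice and the 3 knockout libraries from HRGPcre;Bmal1f/f;Z/EG mice. Both groups therefore carried the HRGPcre transgene, which drives Cre from a human red/green cone pigment promoter, and the Z/EG reporter that turns green where Cre has acted. The controls kept 1 intact Bmal1 allele and were not wild type, although the series refers to them that way. Ages are labelled as postnatal day 60 to 80 and, in a protocol, as 2 to 6 months. The sources used here do not give the hour of collection, or say whether a library stands for 1 animal or a pool. The p-values therefore reflect only how far these libraries scatter, and that scatter may be technical.

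Molecular chaperones bind proteins that are not yet folded or have lost their fold. In the cytosol, J-domain proteins hand clients to HSP70, nucleotide exchange factors release them, HSP90 and the ring-shaped CCT chaperonin finish the folding of selected clients, and prefoldin delivers actin and tubulin to CCT. In the endoplasmic reticulum (ER), BiP (Hspa5), GRP94 (Hsp90b1), calnexin, calreticulin and the disulfide isomerases do this for membrane and secreted proteins, and misfolded chains are sent out for degradation through the Sel1l and Syvn1 complex. When unfolded protein builds up in the ER, the sensors IRE1 (Ern1), PERK (Eif2ak3) and ATF6 start the unfolded protein response, which splices Xbp1, raises Atf4 and, when prolonged, Ddit3 (CHOP), and raises the ER chaperones. Photoreceptors renew their outer segments throughout life and make large amounts of opsin through the ER.

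Promoter stretches are shown for members whose windows hold a motif known from ER stress, heat shock or clock control, so that the letters can be read beside the values below. Promoter windows of 300 bases, from 250 before to 50 after each annotated start, were read from RefSeq (GRCm38.p6) for 78 of the 93 members, which have 98 windows, and 15 members were not matched. The ER stress response element, to which ATF6 and XBP1 bind with the factor NF-Y, was searched as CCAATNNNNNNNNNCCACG and as its complement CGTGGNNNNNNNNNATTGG. It was present in 7 of the 98 member windows (7.14%), against 0.119% of all 32851 windows and 0.126% of the 9557 windows of genes in the table. The 7 genes were Calr, Canx, Dnajc3, Hsp90b1, Hspa5, Pdia6 and Syvn1, and Hsp90b1 had it in both orientations. In the lines below, written 5′ to 3′ on the strand of the gene, capitals mark the bases of a motif that are fixed letters. The stretches lie at chr2:34771950-34772089 (plus strand) for Hspa5, chr10:86705524-86705664 (minus strand) for Hsp90b1, chr8:84847067-84847163 (minus strand) for Calr, chr11:50325783-50325833 (minus strand) for Canx, chr14:118937812-118937860 (plus strand) for Dnajc3, chr12:17266476-17266524 (plus strand) for Pdia6 and chr19:6046516-6046565 (plus strand) for Syvn1. In the Calr line the first capitals are an E-box and the later ones the ER element.
Hspa5: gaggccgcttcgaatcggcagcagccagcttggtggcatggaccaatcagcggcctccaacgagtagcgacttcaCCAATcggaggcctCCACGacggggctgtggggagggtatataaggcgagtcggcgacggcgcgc
Hsp90b1: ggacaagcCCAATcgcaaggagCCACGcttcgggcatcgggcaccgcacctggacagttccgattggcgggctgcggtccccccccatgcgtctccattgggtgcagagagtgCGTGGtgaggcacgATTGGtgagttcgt
Calr: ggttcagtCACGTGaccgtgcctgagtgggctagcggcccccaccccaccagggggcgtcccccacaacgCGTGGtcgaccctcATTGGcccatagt
Canx: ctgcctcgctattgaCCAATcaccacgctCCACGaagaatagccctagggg
Dnajc3: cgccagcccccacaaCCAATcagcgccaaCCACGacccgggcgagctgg
Pdia6: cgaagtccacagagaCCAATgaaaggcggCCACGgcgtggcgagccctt
Syvn1: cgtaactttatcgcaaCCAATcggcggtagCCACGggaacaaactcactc

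The heat shock element, bound by heat shock factors, was searched as GAANNTTCNNGAA and its complement TTCNNGAANNTTC, which can overlap each other. It was present in 6 member windows (6.12%), those of Dnajb6, Hspd1, Hspe1 and Hsph1, against 0.603% of all windows and 0.534% of windows of genes in the table. The windows of Dnajb6 hold the same element, as do those of Hsph1, so elements were counted more than once. By gene, the shares were 5.13% of matched members, 0.662% of all genes with a window and 0.602% of those in the table. The Hspe1 stretch, at chr1:55088038-55088097 (plus strand), holds both orientations overlapping, and the same bases lie in a window of its divergently transcribed neighbour Hspd1. The Dnajb6 stretch lies at chr5:29735838-29735878 (plus strand).
Hspe1: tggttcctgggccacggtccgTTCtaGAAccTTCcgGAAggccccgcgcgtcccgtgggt
Dnajb6: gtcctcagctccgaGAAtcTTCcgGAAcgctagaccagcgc

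BMAL1 and its partner CLOCK bind the E-box, searched as CACGTG, which reads the same on both strands. It was present in 9 member windows (9.18%), of Atf6b, Calr, Dnajb9, Dnajc1, Dnajc16, Dnajc8, Hspd1 and Hsph1, against 7.15% of all windows and 10.2% of windows of genes in the table. The share in members thus lay between those of the other window sets. The Hsph1 windows hold the same E-box. By gene the share was 10.3%, against 8.09% of all genes with a window and 12.2% of those in the table. Stretches are shown for Hspd1 at chr1:55088294-55088343 (minus strand), Hsph1 at chr5:149636316-149636355 (minus strand), Dnajb9 at chr12:44210153-44210193 (minus strand) and Atf6b at chr17:34647081-34647121 (plus strand). A match describes the letters in a window and is no evidence of binding.
Hspd1: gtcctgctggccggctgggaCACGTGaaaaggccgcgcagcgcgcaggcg
Hsph1: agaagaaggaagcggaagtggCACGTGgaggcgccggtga
Dnajb9: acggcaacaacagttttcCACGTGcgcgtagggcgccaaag
Atf6b: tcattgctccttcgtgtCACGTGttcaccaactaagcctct

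**Figure D1:**
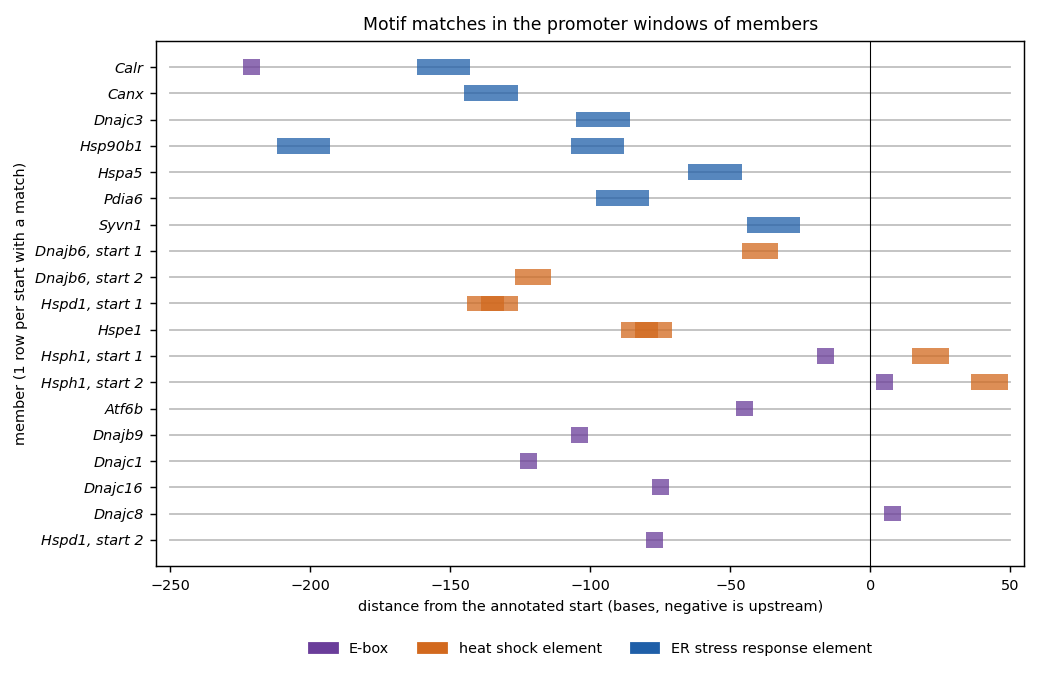
Motif matches in the promoter windows of members, drawn by distance in bases from each annotated start, with 1 row per start that has a match. The ER stress response elements (blue) of 7 genes all lie upstream of the start, the heat shock elements (orange) fall in 4 genes and the E-boxes (purple) in 8.

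No member differed between knockout and control cones past the threshold. Values are FPKM, fragments counted per kilobase of transcript and relative to the size of the library, which are per length and so allow levels of different genes to be compared. Differences are knockout minus control on the log2(FPKM + 1) scale with their standard error, from limma over the 8627 genes whose mean reached 1 FPKM, and they understate changes of low genes. At an adjusted p under 0.05, 9 genes (0.104%) were called, 4 higher (0.0464%) and 5 lower (0.058%) in the knockouts, and 0 of the 87 members tested were among them. The other 6 members, Hspa1b, Hspa12b, Hspa2, Hspbp1, Bag2 and Pdia5, had a mean under 1 FPKM and were not tested. The lowest adjusted p of a member was 0.700 (Edem1). At an unadjusted p under 0.05, 2 of 87 members stood (2.3%), where 5.49% of all tested genes did. They were Dnajb5 on the higher side, with 1.53% of genes, and Edem1 on the lower side, with 3.96%. When the FPKM sums of the libraries were set equal, 5 of 87 members stood (5.75%), against 6.36% of genes, and 4 of them lay on the higher side (4.6% against 3.04% of genes), namely Dnajb5, Dnajc2, Dnajc24 and Hspa4. The ranges of the groups did not overlap for 8 of 87 members (9.2%), against 9.39% of all tested genes. Of these, 3 lay higher (Dnajb5, Dnajc2 and Hspa4), which was so for 3.52% of genes, and 5 lower (Bag5, Calr, Edem1, Pdia3 and Pfdn2), which was so for 5.87%. Calr was chosen after its values were seen. The shares over both directions were near or under the background.

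The differences of the tested members were spread evenly around 0. They were positive for 44 and negative for 43, with a median of 0.01 against -0.02 over all tested genes, and ranged from -0.67 (Edem1) to 0.73 (Dnajb5). The medians given for each role below are descriptions: 10 of the 11 roles with more than 1 tested member had a median that changed sign in at least 1 of 16 alternatives, all but HSP90 (0.03 to 0.32). The 95% interval lay within 1 log2 unit of 0 on both sides for 77 of 87 members, as it did for 7369 of 8627 genes, and its median half-width was 0.53. With 3 libraries a group, a difference smaller than that half-width could not be told from 0 for a typical member. In bulk RNA, fewer cells of a type and less RNA per cell cannot be told apart.

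**Figure D2:**
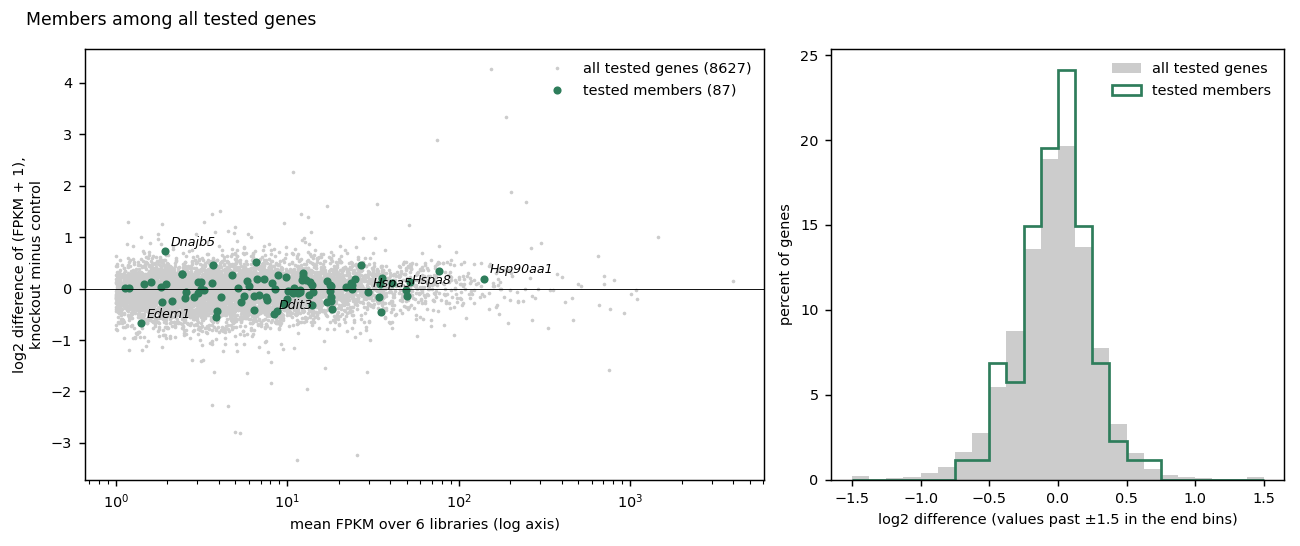
Left, the log2 difference between knockout and control of each tested gene against its mean FPKM over the 6 libraries (log axis), with the 87 tested members in green among 8627 genes in grey; right, the share of genes in each bin of difference for both sets. The members lie inside the cloud of all genes, between -0.67 and 0.73.

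The members were abundant in cones. Their median level over the 6 libraries was 8.36 FPKM, against 3.79 FPKM for all genes in the table, and the means ran from 0.478 FPKM (Hspa2) to 140.4 FPKM (Hsp90aa1). Hsp90aa1 exceeded 99.3% of the genes in the table, Hsp90b1 98.5%, Cct3 97.4%, Hsph1 97.2% and Hspa8 97.1%. Summed over the 93 members, the level was 950.3, 1400.4 and 1490.1 FPKM in control libraries 1 to 3 and 1294, 1284 and 1274.5 FPKM in knockout libraries 1 to 3. The 3 knockout libraries lay close together and between the lowest control and the other controls.

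**Figure D3:**
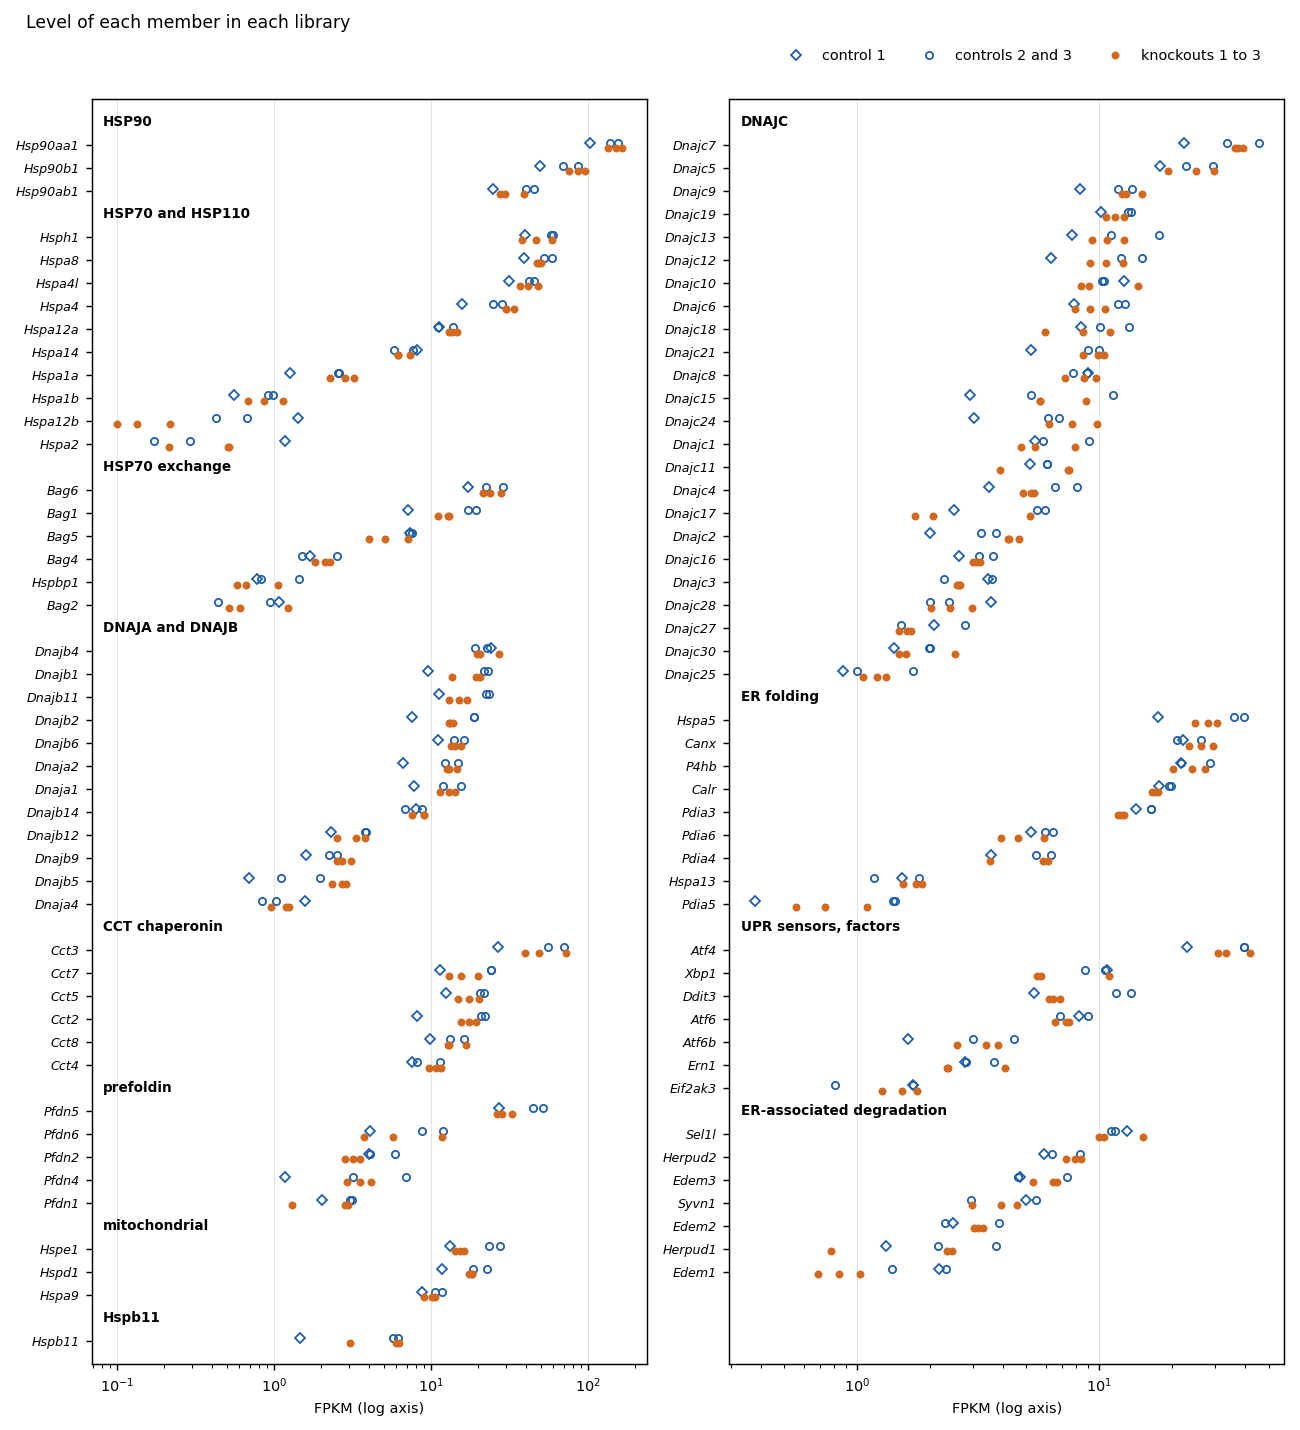
FPKM (log axis) of each of the 93 members in each library, grouped by role, with control 1 as open diamonds, controls 2 and 3 as open circles and knockouts 1 to 3 as filled circles. Control 1 is the lowest library in 51 of the 93 members.

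Control library 1 read low across the members, and this touches most of the values that follow. It was the lowest of the 6 libraries in 49 of 87 tested members (56.3%), against 39.2% of all tested genes. Relative to each gene's mean over the libraries, its median on the log2 scale was -0.33 over the tested members and -0.16 over all tested genes, while the other 5 libraries lay between -0.05 and 0.21 over the members. It also had the lowest FPKM sum over the table, 84995 where the highest was 128773 in control 3. After the sums were set equal, it was the lowest in 28 members (32.2%) against 20.7% of genes. Its median was then -0.07 over the members, beside -0.06 for control 3, and 0.08 over all tested genes. The neuronal gene Stmn2, of the ganglion cell list, was at 21.1 FPKM there and at 0.1 to 0.668 FPKM elsewhere. Of the other 3 ganglion cell markers in the table, Rbpms was also highest in control 1, and Nefl and Nefh were lower there than in the other controls. The part of such RNA in the member values was not tested. Without control 1, 0 members and 0.151% of genes passed the adjusted threshold (lowest adjusted p of a member 0.163 in limma, for Ddit3), the median difference of the members was -0.13, and 10 members (11.5%) had an unadjusted p under 0.05 on the lower side, against 8.58% of genes. These 10 were Bag1, Cct7, Ddit3, Dnajb11, Dnajb2, Dnajc17, Edem1, Hspe1, Pfdn2 and Pfdn5.

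**Figure D4:**
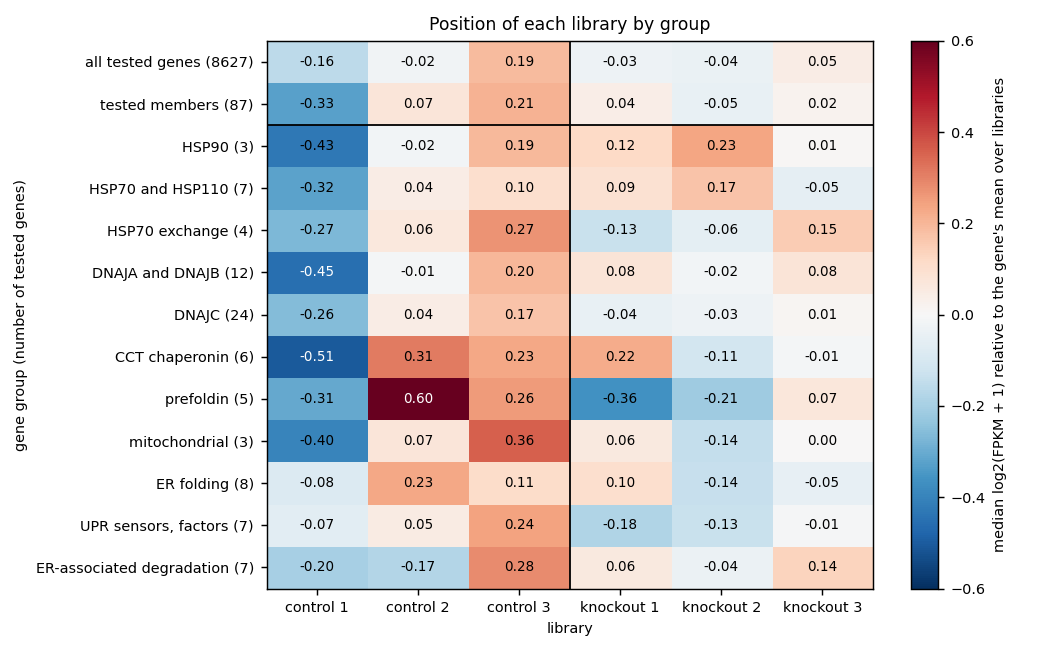
Position of each library by gene group, as the median over genes of log2(FPKM + 1) relative to the gene's mean over the 6 libraries (colour and number), with controls left and knockouts right of the line. Control 1 is at -0.33 for the tested members and -0.51 for the CCT chaperonin, and prefoldin spans -0.36 (knockout 1) to 0.60 (control 2).

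The 3 HSP90 genes were the most abundant role. Hsp90aa1, the stress-inducible cytosolic form, was measured at 103, 137 and 154 FPKM in control libraries 1 to 3 and 151, 164 and 133 FPKM in knockout libraries 1 to 3. Hsp90ab1, the constitutive cytosolic form, was lower per length, at 24.8, 40.1 and 45.4 FPKM in the controls and 29.5, 27.3 and 39.0 FPKM in the knockouts. Hsp90b1, the ER form with both elements shown above, stood at 49.5, 69.6 and 86.5 FPKM in the controls and 85.8, 95.8 and 75.8 FPKM in the knockouts. Control 1 was the lowest library for all 3 genes, and the groups overlapped in each. Mean levels of Hsp90b1 were 68.5 ± 18.5 FPKM in controls and 85.8 ± 9.96 FPKM in knockouts (± is the SD over 3 libraries beside a mean and the standard error beside a difference), a difference of 0.35 ± 0.27 with an adjusted p of 0.96 in limma. Differences of Hsp90aa1 and Hsp90ab1 were 0.20 ± 0.26 and -0.17 ± 0.27, so the cytosolic pair had opposite signs and neither exceeded its standard error. Of the Hsp90aa1 transcript, 47.6% of 100-base windows also occur in another gene's transcript, which makes its level uncertain where the counting could split such reads.

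Among the 10 cytosolic HSP70 and HSP110 genes, 7 were tested, with 4 positive and 3 negative differences and a median of 0.10. Hspa8, the constitutive HSP70 that also uncoats clathrin vesicles, was measured at 39.0, 58.8 and 52.3 FPKM in control libraries 1 to 3 and 47.3, 48.4 and 50.2 FPKM in knockout libraries 1 to 3. All 3 knockout values fell inside the range of the controls, and the difference was -0.02 ± 0.24. Hsph1, an HSP110 that acts as an exchange factor for HSP70 and the most abundant member of the role, stood at 39.7, 60.0 and 58.0 FPKM in the controls and 37.8, 58.7 and 46.6 FPKM in the knockouts, again with overlapping groups. Hspa4, another HSP110, was measured at 15.7, 24.8 and 28.4 FPKM in the controls and 30.0, 33.6 and 30.2 FPKM in the knockouts. Each knockout library lay above each control. Its mean was 23.0 ± 6.55 FPKM in controls and 31.3 ± 2.02 FPKM in knockouts, and the difference of 0.47 ± 0.25 came with an adjusted p of 0.909 in limma. Without control 1 that difference was 0.23.

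Hspa1a and Hspa1b, the heat-inducible HSP70 genes on chromosome 17 (34969190 to 34972156 and 34956436 to 34959238, minus strand, GRCm38), were low in every library. Hspa1a was at 1.26, 2.58 and 2.56 FPKM in the controls and 3.21, 2.82 and 2.27 FPKM in the knockouts, and Hspa1b at 0.557, 0.978 and 0.909 FPKM in the controls and 1.13, 0.678 and 0.866 FPKM in the knockouts. Both genes had overlapping groups, with control 1 lowest. The difference of Hspa1a was 0.29 ± 0.24 (adjusted p 0.969 in limma). The level of Hspa8 was 14.7 to 30.9 times that of Hspa1a within single libraries. Hspa1a and Hspa1b share 48.6% and 49.9% of their 100-base windows, mostly with each other, so the split between them is uncertain, and 62.8% of Hspa8 windows recur in other genes, a pseudogene foremost. Hspa12b, an HSP70 relative of endothelial cells, was under the mean for testing, at 1.41, 0.669 and 0.427 FPKM in the controls and 0.1, 0.134 and 0.218 FPKM in the knockouts. Its knockout values lay below all controls, with knockout 1 at the lowest value the table holds. The endothelial marker Pecam1 lay on the other side, at 0.664, 0.593 and 0.811 FPKM in the controls and 1.23, 1.25 and 1.30 FPKM in the knockouts, with all knockouts above all controls.

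The Bag genes and Hspbp1, grouped by symbol as exchange factors of HSP70, had 4 tested members of 6, with 2 positive and 2 negative differences. Bag5 was measured at 7.38, 7.26 and 7.51 FPKM in control libraries 1 to 3 and 4.03, 5.05 and 7.14 FPKM in knockout libraries 1 to 3. The controls were nearly equal, knockouts 1 and 2 lay well below them, and knockout 3 lay just under the lowest control. The means were 7.38 ± 0.125 FPKM in controls and 5.41 ± 1.59 FPKM in knockouts, with a difference of -0.42 ± 0.23 (adjusted p 0.909 in limma). Bag6, which guards tail-anchored membrane proteins on their way to the ER and was the most abundant of the role, stood at 17.3, 22.2 and 28.8 FPKM in the controls and 23.6, 21.3 and 27.8 FPKM in the knockouts, with overlapping groups.

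The 12 DNAJA and DNAJB genes, J-domain partners of HSP70, had 9 positive and 3 negative differences with a median of 0.06. Dnajb5, on chromosome 4 (42949814 to 42959425, plus strand), had the largest positive difference of all members. It was measured at 0.689, 1.11 and 1.96 FPKM in control libraries 1 to 3 and 2.72, 2.35 and 2.85 FPKM in knockout libraries 1 to 3. Every knockout library exceeded every control, and the controls themselves spanned a wide range. Means were 1.25 ± 0.648 FPKM in controls and 2.64 ± 0.259 FPKM in knockouts, a ratio of 2.11, and the log2 difference of 0.73 ± 0.24 (95% interval 0.20 to 1.26) had an unadjusted p of 0.0108 and an adjusted p of 0.717 in limma. Dnajb9 (ERdj4), an ER co-chaperone of BiP that IRE1 and XBP1 induce and whose window holds an E-box, stood at 1.60, 2.25 and 2.51 FPKM in the controls and 2.71, 3.07 and 2.50 FPKM in the knockouts. Knockouts 1 and 2 lay above the controls and knockout 3 fell level with control 3, for a difference of 0.28 ± 0.21 (adjusted p 0.96 in limma). Dnaja2, a general cytosolic J-domain protein, was at 6.66, 12.2 and 14.9 FPKM in the controls and 13.1, 14.7 and 12.7 FPKM in the knockouts. The knockouts lay between controls 2 and 3, and the difference of 0.31 ± 0.27 came to 0 within rounding without control 1. Dnajb4, the most abundant of the role, had 23.9, 19.0 and 22.5 FPKM in the controls and 27.0, 20.4 and 19.7 FPKM in the knockouts and overlapping groups. The remaining members of the role had means over the 6 libraries from 1.14 FPKM (Dnaja4) to 18.0 FPKM (Dnajb1).

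The 24 DNAJC genes, the most diverse J-domain class, were all tested, and 11 differences were positive and 13 negative with a median of -0.01. Dnajc2 (zuotin), which works at the ribosome, was measured at 2.01, 3.23 and 3.74 FPKM in control libraries 1 to 3 and 4.66, 4.21 and 4.24 FPKM in knockout libraries 1 to 3. All 3 knockouts lay above the controls, with means of 2.99 ± 0.893 FPKM in controls and 4.37 ± 0.254 FPKM in knockouts and a difference of 0.45 ± 0.23 (adjusted p 0.897 in limma). Dnajc24, which takes part in diphthamide synthesis, was at 3.03, 6.84 and 6.11 FPKM in the controls and 9.75, 7.68 and 6.22 FPKM in the knockouts. Control 1 stood far below the rest, knockout 3 fell between controls 2 and 3, and the difference was 0.53 ± 0.28 (adjusted p 0.909 in limma). Dnajc17 went the other way, at 2.52, 5.55 and 5.99 FPKM in the controls and 1.73, 2.06 and 5.18 FPKM in the knockouts. Knockouts 1 and 2 lay below all controls and knockout 3 beside controls 2 and 3, for a difference of -0.55 ± 0.34 (adjusted p 0.929 in limma). Dnajc7, a co-chaperone that binds both HSP70 and HSP90, was the most abundant at 22.5, 33.6 and 45.7 FPKM in the controls and 36.4, 37.4 and 39.1 FPKM in the knockouts. Next came Dnajc5, the cysteine string protein of synaptic vesicles, whose means were 23.4 ± 5.88 FPKM in controls and 24.7 ± 5.32 FPKM in knockouts. Dnajc3 (P58IPK), an ER protein with the ER stress response element, had means of 3.11 ± 0.723 FPKM in controls and 2.62 ± 0.0448 FPKM in knockouts and a difference of -0.17 ± 0.22. The groups overlapped for all 3 of these genes.

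The CCT chaperonin folds actin and tubulin, and its 6 listed subunits had 4 positive and 2 negative differences with a median of 0.13. The median was -0.27 without control 1, -0.21 with array weights and -0.05 without knockout 1. Cct3, the most abundant, was measured at 26.8, 70.0 and 55.6 FPKM in control libraries 1 to 3 and 72.7, 39.4 and 48.6 FPKM in knockout libraries 1 to 3. Both groups spread widely, and the highest and lowest values of the 6 were a knockout and a control. Cct7 was at 11.4, 24.1 and 24.0 FPKM in the controls and 12.9, 15.6 and 19.8 FPKM in the knockouts, and Cct4 at 7.58, 8.17 and 11.5 FPKM in the controls and 11.6, 10.8 and 9.70 FPKM in the knockouts. The knockout values of Cct7 lay between control 1 and the other controls. Differences were 0.23 ± 0.23 for Cct4 (adjusted p 0.984 in limma) and -0.23 ± 0.30 for Cct7, and 0 subunits had groups apart. The subunits sit in the ring in equal number, and the transcript level of Cct3 was 3.53 to 8.57 times that of Cct4 within single libraries. Control 1 was the lowest library for all 6 subunits, and the summed level was 76.3, 158 and 149.7 FPKM in controls and 153, 109 and 126 FPKM in knockouts.

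Prefoldin had 1 positive and 4 negative differences among its 5 members, with a median of -0.22. That median was -0.52 without control 1, -0.54 with array weights and 0.02 without knockout 1, so its size and sign depend on single libraries. Pfdn5 was measured at 27.2, 51.7 and 44.7 FPKM in control libraries 1 to 3 and 26.1, 28.2 and 32.6 FPKM in knockout libraries 1 to 3. The knockouts lay beside control 1 and below controls 2 and 3. Means were 41.2 ± 12.7 FPKM in controls and 29.0 ± 3.31 FPKM in knockouts and the difference was -0.45 ± 0.27 (adjusted p 0.929 in limma), or -0.72 with an adjusted p of 0.268 in limma without control 1. Pfdn2 was at 3.99, 5.92 and 4.08 FPKM in the controls and 2.81, 3.16 and 3.51 FPKM in the knockouts. All 3 knockouts lay below the lowest control, with means of 4.67 ± 1.09 FPKM in controls and 3.16 ± 0.348 FPKM in knockouts and a difference of -0.43 ± 0.22 (adjusted p 0.897 in limma). Pfdn6, Pfdn4 and Pfdn1 had overlapping groups, and Pfdn4 ranged from 1.17 to 6.93 FPKM within the controls alone.

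The mitochondrial chaperones are Hspd1 (HSP60), its lid Hspe1 (HSP10) and Hspa9 (mortalin), an HSP70. Hspd1 was measured at 11.7, 18.4 and 22.7 FPKM in control libraries 1 to 3 and 18.2, 17.4 and 18.1 FPKM in knockout libraries 1 to 3. The 3 knockouts were nearly equal and lay inside the range of the controls, and the difference was 0.07 ± 0.26. Hspe1 was at 13.1, 27.4 and 23.3 FPKM in the controls and 14.2, 15.3 and 16.3 FPKM in the knockouts. The knockouts lay between control 1 and the other controls, with a difference of -0.39 ± 0.27 (adjusted p 0.934 in limma). Hspa9 had means of 10.3 ± 1.49 FPKM in controls and 9.86 ± 0.768 FPKM in knockouts. The Hspd1 and Hspe1 genes lie head to head on chromosome 1, and their annotated exons overlap over 112 bases on opposite strands. Use of strand in the counting is not stated in the sources at hand, so reads there cannot be assigned with certainty. Hspb11, whose symbol falls among the small heat shock proteins but which is a subunit of intraflagellar transport (IFT25), read 1.45 FPKM in control 1, its lowest library, and 6.25 FPKM in knockout 2, its highest, with a difference of 0.26 ± 0.38.

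**Figure D5:**
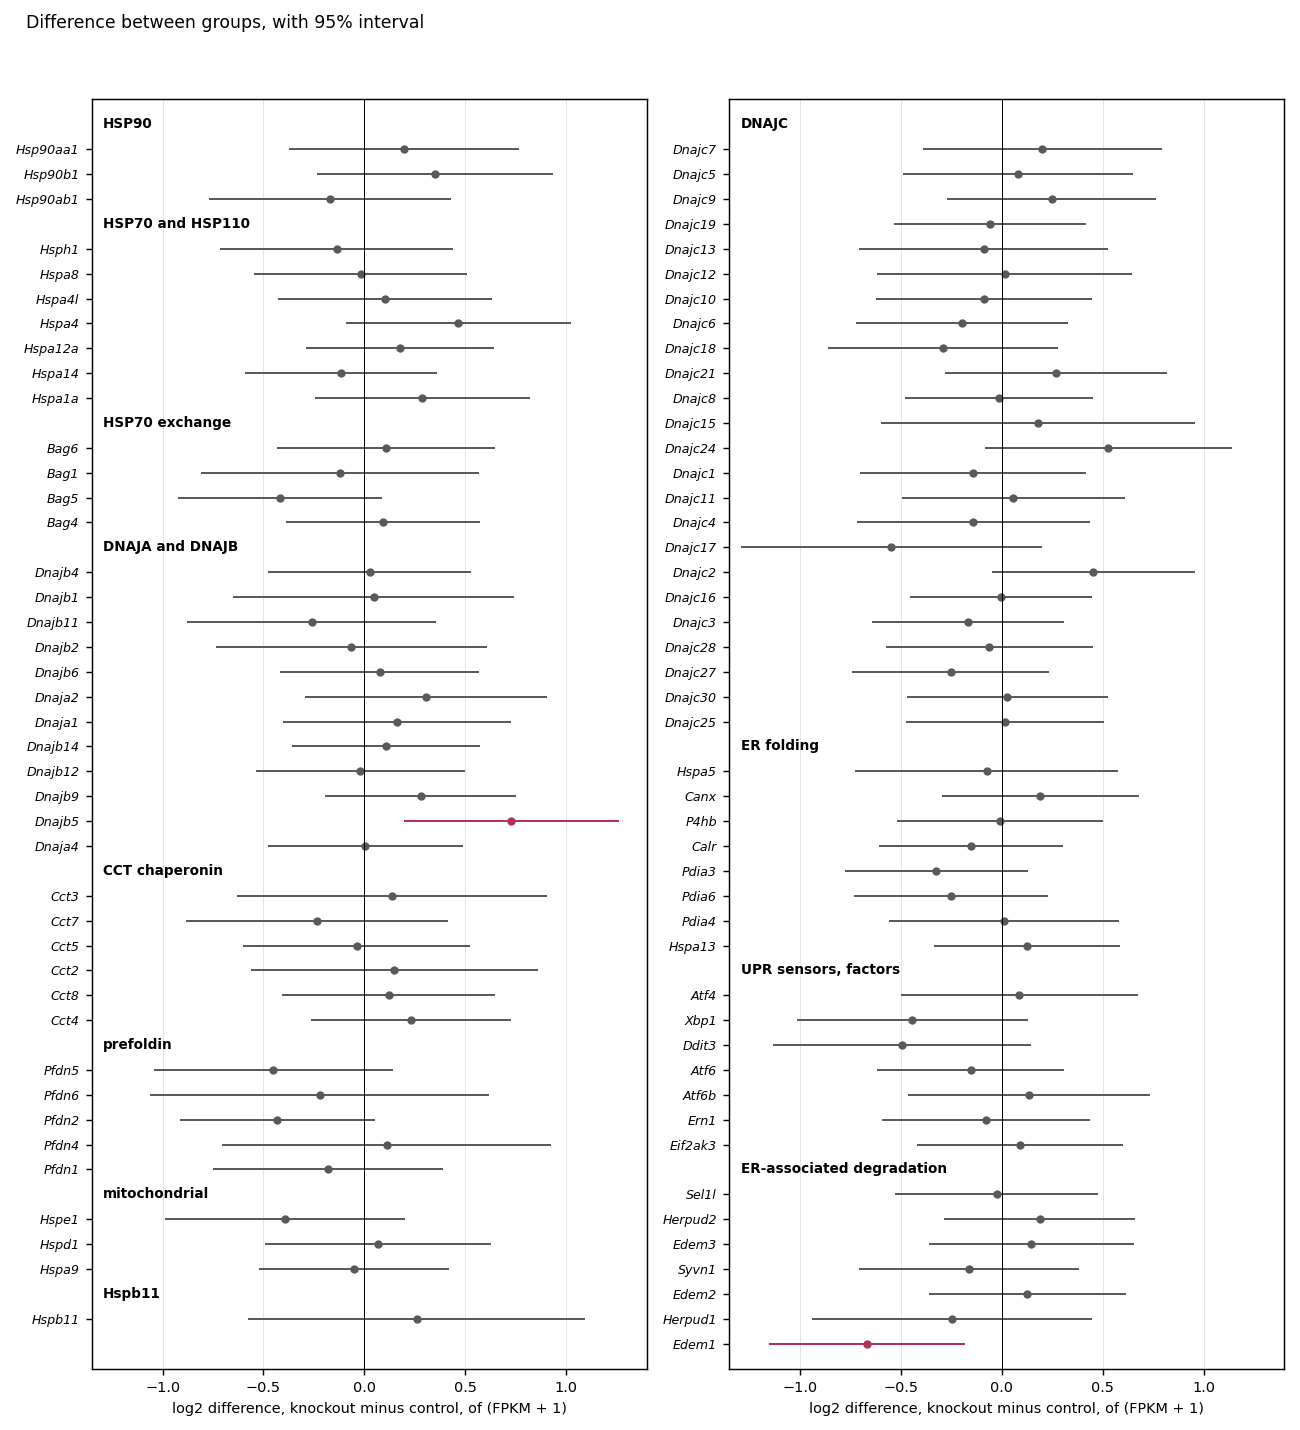
Log2 difference of (FPKM + 1), knockout minus control, of the 87 tested members by role, with points for the estimate and bars for the 95% interval from limma. The intervals of Dnajb5 and Edem1 (red) leave out 0 before adjustment, and no member passed after adjustment over all genes.

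Among ER folding genes, 3 of 8 tested differences were positive and 5 negative, with a median of -0.04. The median was -0.19 without control 1, -0.20 with array weights, -0.13 without knockout 1 and 0.05 without control 2. Hspa5 (BiP), the HSP70 of the ER lumen and the usual readout of ER stress, was measured at 17.5, 36.1 and 39.7 FPKM in control libraries 1 to 3 and 30.8, 24.9 and 28.1 FPKM in knockout libraries 1 to 3. The knockouts lay between control 1 and controls 2 and 3, with means of 31.1 ± 11.9 FPKM in controls and 27.9 ± 2.95 FPKM in knockouts. The difference was -0.07 ± 0.30, with a 95% interval of -0.72 to 0.57. Pdia3, the disulfide isomerase that works with calnexin and calreticulin, stood at 14.2, 16.3 and 16.3 FPKM in the controls and 12.2, 11.9 and 12.6 FPKM in the knockouts. Each knockout lay below each control, with means of 15.6 ± 1.21 FPKM in controls and 12.3 ± 0.361 FPKM in knockouts, and the difference of -0.32 ± 0.21 had an adjusted p of 0.934 in limma. Its partner Calr (calreticulin) was at 17.7, 19.9 and 19.5 FPKM in the controls and 17.5, 17.0 and 16.5 FPKM in the knockouts. Those groups were also apart, by a small margin, with a difference of -0.15 ± 0.21. Pdia6 was at 5.24, 6.45 and 5.96 FPKM in the controls and 4.62, 3.94 and 5.91 FPKM in the knockouts, with knockout 3 among the controls and a difference of -0.25 ± 0.22 (adjusted p 0.975 in limma). The membrane-bound Canx (calnexin) had means of 23.1 ± 2.80 FPKM in controls and 26.4 ± 2.97 FPKM in knockouts and P4hb, the most studied disulfide isomerase, 24.1 ± 4.05 FPKM in controls and 23.9 ± 3.64 FPKM in knockouts, both with overlapping groups. The 7 members with an ER stress response element had 2 positive and 5 negative differences, from -0.25 to 0.35 with a median of -0.15, and a lowest adjusted p of 0.960 in limma. Their median level was 18.0 FPKM, against 8.17 FPKM for the 71 matched members without the element. The 8 members with an E-box had 3 positive and 5 negative differences, from -0.15 to 0.28 with a median of -0.01 and a lowest adjusted p of 0.960 in limma, and among them Dnajc8 and Dnajc16 changed sign under another scaling. The 4 with a heat shock element had 2 of each sign and a median of -0.03.

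The genes of the unfolded protein response ranged from 1.46 FPKM (Eif2ak3) to 34.8 FPKM (Atf4) in their means over the 6 libraries, and the 7 members had 3 positive and 4 negative differences with a median of -0.08. Eif2ak3 (PERK) was measured at 1.70, 1.69 and 0.811 FPKM in control libraries 1 to 3 and 1.26, 1.52 and 1.77 FPKM in knockout libraries 1 to 3. Ern1 (IRE1) was at 2.79, 2.81 and 3.69 FPKM in the controls and 2.36, 2.38 and 4.07 FPKM in the knockouts, and Atf6 at 8.26, 6.87 and 9.01 FPKM in the controls and 6.54, 7.27 and 7.48 FPKM in the knockouts. The groups overlapped for each sensor, and the differences were 0.09 ± 0.23, -0.08 ± 0.23 and -0.15 ± 0.21. The Atf6 relative Atf6b, whose window holds an E-box, had means of 3.02 ± 1.41 FPKM in controls and 3.27 ± 0.628 FPKM in knockouts. Atf4, which is controlled mainly at translation, was the most abundant of the role at 23.0, 39.7 and 39.7 FPKM in the controls and 41.9, 31.1 and 33.5 FPKM in the knockouts. Its groups overlapped, with a difference of 0.09 ± 0.27. Xbp1, whose transcript IRE1 splices, was at 10.7, 8.75 and 10.6 FPKM in the controls and 5.54, 5.74 and 10.9 FPKM in the knockouts. Knockouts 1 and 2 lay below all controls while knockout 3 was the highest of the 6, and the difference was -0.44 ± 0.26 (adjusted p 0.924 in limma). These gene-level values do not separate spliced from unspliced Xbp1.

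Ddit3 (CHOP), the factor of prolonged ER stress on chromosome 10 (127290774 to 127296288, plus strand), was measured at 5.35, 11.8 and 13.5 FPKM in control libraries 1 to 3 and 6.18, 6.86 and 6.47 FPKM in knockout libraries 1 to 3. The 3 knockouts were close together, above control 1 and under controls 2 and 3 by a wide gap. Means were 10.2 ± 4.30 FPKM in controls and 6.50 ± 0.342 FPKM in knockouts, with a difference of -0.49 ± 0.29 (adjusted p 0.924 in limma). Without control 1 the difference was -0.86 (adjusted p 0.163 in limma). The Ddit3 level was 0.233, 0.296 and 0.341 of the Atf4 level in control libraries 1 to 3 and 0.147, 0.221 and 0.193 in the knockouts, a ratio chosen after the values were seen.

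ER-associated degradation had 7 tested members, 3 with positive and 4 with negative differences and a median of -0.03. Edem1, an ER lectin that sends misfolded glycoproteins to degradation (chromosome 6, 108828641 to 108859356, plus strand), had the largest negative difference of all members. It was measured at 2.17, 2.34 and 1.39 FPKM in control libraries 1 to 3 and 0.690, 0.839 and 1.02 FPKM in knockout libraries 1 to 3. All 3 knockouts lay below the lowest control, and the mean that admitted Edem1 to the test came from the controls. Means were 1.97 ± 0.503 FPKM in controls and 0.851 ± 0.167 FPKM in knockouts, so controls were at 2.31 times the knockouts, and the log2 difference was -0.67 ± 0.22 (95% interval -1.15 to -0.19, unadjusted p 0.0104, adjusted p 0.7 in limma). Its relative Edem2 had means of 2.88 ± 0.853 FPKM in controls and 3.17 ± 0.130 FPKM in knockouts and Edem3 of 5.56 ± 1.58 FPKM in controls and 6.16 ± 0.721 FPKM in knockouts. Herpud2 was at 5.89, 6.37 and 8.31 FPKM in the controls and 7.95, 7.30 and 8.41 FPKM in the knockouts, with a difference of 0.19 ± 0.22. Sel1l, the adaptor of the ubiquitin ligase Syvn1 (HRD1), was the most abundant at 13.0, 11.2 and 11.6 FPKM in the controls and 15.1, 10.5 and 9.97 FPKM in the knockouts. Syvn1 itself had means of 4.46 ± 1.34 FPKM in controls and 3.82 ± 0.789 FPKM in knockouts. The groups overlapped for Herpud2, Sel1l and Syvn1, and Herpud1, a target of the ER stress response, ranged from 0.780 to 2.46 FPKM within the knockouts.

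Genes of the same pathways that the symbol rule does not cover were read in the same way, from lists chosen by function. Of 31 listed cochaperones and heat shock factors, 30 were in the table and 28 tested, with 9 positive and 19 negative differences and a median of -0.04. Of the 28, 0 were called in limma and 1 stood at an unadjusted p under 0.05, where 5.49% of all tested genes did. Groups were apart for 2 of the 28, both lower, against 9.39% of all tested genes in either direction and 5.87% lower. Aipl1, the HSP90 cochaperone of photoreceptors that is needed to make phosphodiesterase, was the most abundant at 100.0, 148 and 173 FPKM in the controls and 115, 98.4 and 163 FPKM in the knockouts. Fkbp4, an HSP90 cochaperone, was at 31.0, 36.6 and 41.7 FPKM in the controls and 18.2, 20.8 and 32.1 FPKM in the knockouts, and Pdcl3, a partner of CCT, at 8.79, 4.97 and 5.27 FPKM in the controls and 1.21, 4.35 and 5.60 FPKM in the knockouts. The groups overlapped for all 3 genes, and the adjusted p of Fkbp4 was 0.895 in limma for a difference of -0.63 ± 0.26. Of the listed targets and quality control genes of the unfolded protein response, 51 were in the table and 45 tested. They had 20 positive and 25 negative differences and a median of -0.05. In limma 0 were called, and 2 of the 45 had an unadjusted p under 0.05, against 5.49% of all tested genes. The groups were apart for 5 of the 45, 1 higher (3.52% of all genes) and 4 lower (5.87%). Sil1, the exchange factor of BiP, was at 2.96, 2.11 and 2.58 FPKM in the controls and 1.32, 1.14 and 1.99 FPKM in the knockouts, and Asns (asparagine synthetase, an ATF4 target) at 8.98, 14.2 and 9.45 FPKM in the controls and 7.82, 3.65 and 8.52 FPKM in the knockouts. Both had all knockouts below all controls, with differences of -0.52 ± 0.22 and -0.67 ± 0.30 and an adjusted p of 0.897 each in limma. Ube2j1, a ubiquitin-conjugating enzyme of ER degradation, was the most abundant at 49.2, 52.1 and 54.3 FPKM in the controls and 52.6, 58.6 and 45.6 FPKM in the knockouts.

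Several values of the libraries as a whole bear on these comparisons. Arntl, the gene of BMAL1, was at 3.0, 2.60 and 3.27 FPKM in the controls and 3.37, 2.28 and 3.48 FPKM in the knockouts, and a value over the whole transcript does not show which exons were read, so it does not check the deletion. All 12 cone markers were in the table, with sums of 4126 to 6945 FPKM in controls and 5548 to 6696 FPKM in knockouts. Of 15 rod markers 14 were in the table, with sums of 3031 to 3760 FPKM in controls and 2544 to 3771 FPKM in knockouts, so rod RNA was present in both groups. Summed Müller glia markers (7 of 11 in the table) lay at 91.8 to 120.2 and 101 to 111 FPKM, and bipolar markers (9 of 11) at 87.1 to 124 and 97.7 to 109.9 FPKM. The sum of the 2 amacrine markers in the table (of 9) was 8.98 to 11.2 FPKM in controls and 5.01 to 8.15 FPKM in knockouts, while Pax6 and Slc6a9 each overlapped between groups. Some single markers had groups apart: Opn1sw (short-wavelength cone opsin) lay higher in the knockouts, as did the rod genes Nr2e3 and Cnga1 and the red blood cell gene Alas2, and the Müller glia genes Apoe and Clu and the bipolar gene Gng13 lay lower. Opn1sw was at 735, 1005 and 1202 FPKM in the controls and 1774, 1977 and 2091 FPKM in the knockouts, and Gng13 at 6.31, 2.96 and 3.56 FPKM in the controls and 2.16, 1.17 and 2.05 FPKM in the knockouts. Neither passed in limma (adjusted p 0.649 and 0.605). Only 1 of 8 microglia markers was listed and 0 of 6 for the pigment epithelium. Of 10 vascular and red blood cell markers 2 were in the table, Alas2 and Pecam1, and the haemoglobin genes Hbb-bs, Hba-a1 and Hba-a2 were not. Immediate early genes, which respond to tissue handling, summed to 44.2 to 60.2 FPKM in controls and 47.5 to 57.3 FPKM in knockouts. Single genes went both ways: of 8 tested, 4 differences were positive and 4 negative, from -0.50 (Ier3) to 0.68 (Egr1). In limma 0 of them were called, and 0 had groups apart. The part of these cells in the member values was not tested.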

How the data were processed

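The authors deposited 1 table of FPKM values for the 6 libraries, with the gene ID, symbol and gene type. The build was mm10, and HTSeq, DESeq2, Cufflinks (2.2.1) and TopHat2 (2.1.0) were among the tools, per the submitters' processing notes. The sources used here do not give their roles, the annotation or any use of strand. Each gene exceeded 1 FPKM somewhere, and 0.1 FPKM is the lowest value in the table (reached by 389 genes and, among members, by Hspa12b). FPKM do not show how many reads lie behind them, so depth is unknown and no counting interval is given.

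The log2(FPKM + 1) values of the 8627 genes whose mean reached 1 FPKM went into limma (version 3.58.1, R 4.3.3; two-sided, eBayes with trend), and p-values were adjusted over all of them by Benjamini-Hochberg, with a threshold of 0.05. The fit was also run on simulated data with independent noise for each gene and no shift of a whole library. That run therefore does not bear on the low values of control 1. Figures were drawn with matplotlib 3.10.9 and tables made with pandas 2.3.3 and numpy 2.4.6 under Python 3.11.15. IDs were matched to GENCODE vM21 (9702 of 9720, all 93 members), and 15 symbols stored as dates were restored. Shared sequence was counted as 100-base windows of each longest transcript found in another gene's transcripts. Members and lists were chosen with earlier results of these data known, and Hspbp1, Hspb11 and Hspa13 were moved between roles after the gene names were seen. Named with every library are, per role, the most abundant member, the 2 of smallest p (3 in roles of 10 or more tested) and a fixed set of well-known genes; from each outside list, the 2 of smallest p and the most abundant. Other members are given by means or ranges, and members with groups apart in full. Alternatives were pseudocounts of 0.1 and 0.5, no filter or a mean of 5 FPKM, 3 scalings, no trend, array weights, a replicate block and leaving out each library.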

Additional observations from a re-analysis of the deposited data

How the results depend on the processing

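Under all 16 alternatives 0 members were called in either direction in limma. The lowest adjusted p of a member ranged from 0.163 without control 1 to 0.99975 without knockout 2, and was 0.185 with array weights. The median difference of the members ranged from -0.13 without control 1 to 0.07 without control 3. Over all genes, 4 were called higher and 5 lower. Array weights gave 11 and 12, the replicate block gave 1 higher and 5 lower, and leaving out single libraries gave 1 to 5 higher and 5 to 8 lower, with 8 without control 1; the cause was not tested. The replicate numbers did not pair the libraries: the deviations of same-numbered libraries correlated at -0.118, -0.0853 and -0.0336 across genes. Of the 87 tested members, 49 changed sign in some alternative, and among the 23 with a difference of at least 1 standard error only Dnaja2 did: the log2 difference of Dnaja2 was -0.000286 without control 1 and 0.53 without control 3. Under another scaling 7 members changed sign, Dnajb4, Dnajb12, Dnaja4, Dnajc8, Dnajc16, Hspa8 and P4hb, so no direction is drawn for them. With 3 libraries a group, unknown depth and control 1 low in most members, differences of the size of the median half-width, 0.53 on the log2 scale, cannot be told from 0.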

Other observations

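Ratios of levels within a library were computed for 10 pairs of related genes, chosen after the data were seen and not tested. The groups did not overlap for 4 pairs, Ddit3 over Atf4 among them, and overlapped for 6, such as Pfdn5 over Pfdn1, Dnajc7 over Dnajc5 and Hspa8 over Hspa1a. No share over all gene pairs was computed, so these counts have no background. The ratios below describe single libraries, and no difference between the groups is drawn from them. The level of Hspd1, the HSP60 chaperonin, was 0.891, 0.672 and 0.973 times that of its lid Hspe1 in control libraries 1 to 3 and 1.28, 1.14 and 1.11 times in the knockouts. The groups did not overlap, and these divergent neighbours share an exon stretch. Part of each transcript also recurs in other genes, which makes the ratio uncertain. Edem3 stood at 2.17, 1.97 and 5.30 times the level of Edem1 in the controls and at 7.73, 7.96 and 6.31 times in the knockouts, also without overlap. Edem3 overlapped between groups on its own, so the gap repeats that of Edem1. Edem1 is a low denominator, at 0.690 to 1.02 FPKM in the knockouts, and passed the filter through its controls. The ratio of Xbp1 to the IRE1 gene Ern1 was 3.84, 3.11 and 2.86 in the controls and 2.35, 2.41 and 2.69 in the knockouts, without overlap, although both genes overlapped on their own. Hsp90aa1 over Hsp90ab1, with overlapping groups, ranged from 3.39 to 6.00 over the 6 libraries.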
